A study of Homo sapiens with 4 samples.

Results

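Receptors for the constant (Fc) part of antibodies, together with the gamma chain through which several of them signal, were followed in BLaER1, an established human line of leukaemic B cells with a built-in fusion of C/EBPα, a myeloid transcription factor, to the part of the oestrogen receptor that binds hormone. The gene rows were chosen by name, whatever their values: FCGR1A, FCGR1B, FCGR2A, FCGR2B, FCGR2C, FCGR3A, FCGR3B, FCER1G, FCGRT and FCAR, 10 of the 58302 gene rows in the table, each present in all 4 libraries. The differentiated group was BLaER1 cultured with 100 nM oestradiol and the cytokines M-CSF and IL-3 for 5 to 6 days (2 libraries), and the undifferentiated group was the same line without that protocol (2 libraries). The line and its fusion protein are common to both groups, so the comparison holds the added factors, the hormone and the days of culture together. The labels do not say that the 2 libraries of a group came from separate cultures, so the p-values rest on a spread among libraries that may be technical only.

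Antibodies that coat a particle are read by Fc receptors on myeloid cells. Activating receptors lead, through an immunoreceptor tyrosine-based activation motif (ITAM), to kinases of the Src and Syk families, and from there to engulfment, oxidant release and cytokine production. In FCGR2A the motif lies in the receptor's own tail, whereas FCGR1A and FCGR3A borrow it from FCER1G, the common gamma chain, without which they are poorly held at the cell surface. FCGR2B carries an inhibitory motif (ITIM) that recruits phosphatases, and a macrophage's threshold for responding to immune complexes is known to depend on the balance of activating and inhibitory receptors. FCGRT, the neonatal Fc receptor, works inside endosomes, where it rescues IgG and albumin from breakdown.

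The signalling motifs are printed first, since they define the roles by which the genes are ordered below. Reference coding sequences from GENCODE release 29 (GRCh38) were searched codon by codon for the ITAM, and it was found in FCER1G, FCGR2A and FCGR2C and in no other of the 10 genes. Capitals mark the tyrosine codons, and the motif of FCGR2C had the same 60 bases as that of FCGR2A. The ITIM of FCGR2B is given beside them; its short pattern also matched in FCGR1A, FCGR1B, FCER1G, FCGRT and FCAR, which are not known as ITIM receptors. The genes whose motifs are printed here all lie on chromosome 1.
FCER1G ITAM: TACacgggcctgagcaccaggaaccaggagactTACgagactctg
FCGR2A ITAM: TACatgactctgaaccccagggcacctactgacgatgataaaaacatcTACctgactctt
FCGR2C ITAM: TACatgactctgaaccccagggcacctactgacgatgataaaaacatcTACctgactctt
FCGR2B ITIM: atcaccTATtcacttctc

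Values were TPM, an abundance scaled by transcript length and to a common sum per library, so levels of different genes can be set side by side, but the sequencing depth behind them is unknown and no counting error can be given. Genes with at least 1 TPM in 2 or more libraries were compared on log2(TPM + 1) with limma, and a gene is called where its p, adjusted by Benjamini-Hochberg across the 10180 genes tested, is below 0.05. On this scale the difference of a low gene comes out smaller than its fold in TPM. Of all tested genes, 41.4% were called, 18.6% higher and 22.8% lower in differentiated cells (1890 and 2326 genes), against 4102 higher and 2153 lower when the values were rescaled over protein-coding genes. Of the monocyte and macrophage markers, 11 of 12 were tested and all 11 rose (summed level 839.65 and 917.11 TPM in differentiated libraries, against 8.93 and 6.37 TPM in undifferentiated libraries), while 11 of 12 B lineage markers were tested and all 11 fell (14.27 and 16.84 TPM in differentiated against 543.04 and 314.42 TPM in undifferentiated libraries). CD14 was among those that rose and PAX5 among those that fell. All tested monocyte and macrophage markers but CSF1R passed the filter through the differentiated libraries alone. Several B lineage markers, PAX5 among them, passed it through the undifferentiated libraries alone. These counts thus carry no weight of their own, and the match of both labels to their defining markers rests on the summed levels.

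The common gamma chain and the main IgG receptors were abundant in differentiated cells and nearly or fully absent from undifferentiated cells. Of the 10 genes, 7 passed the filter on low values, and each of these had higher values in both differentiated libraries than in either undifferentiated library and was called higher. They passed it through the differentiated libraries alone. Neither the lack of overlap nor the count of 7 thus carries weight of its own. Of all tested genes, 18.6% were called higher. FCGR2B and FCGR3B stayed below the filter and FCAR was listed at 0 in all 4 libraries. The plot of the 10 genes by library shows this split into 5 abundant genes, a pair of low ones and 3 near or at 0. In bulk RNA, fewer expressing cells and less RNA per cell cannot be told apart, so the low values may belong to all cells or to a part of them.

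**Figure D1:**
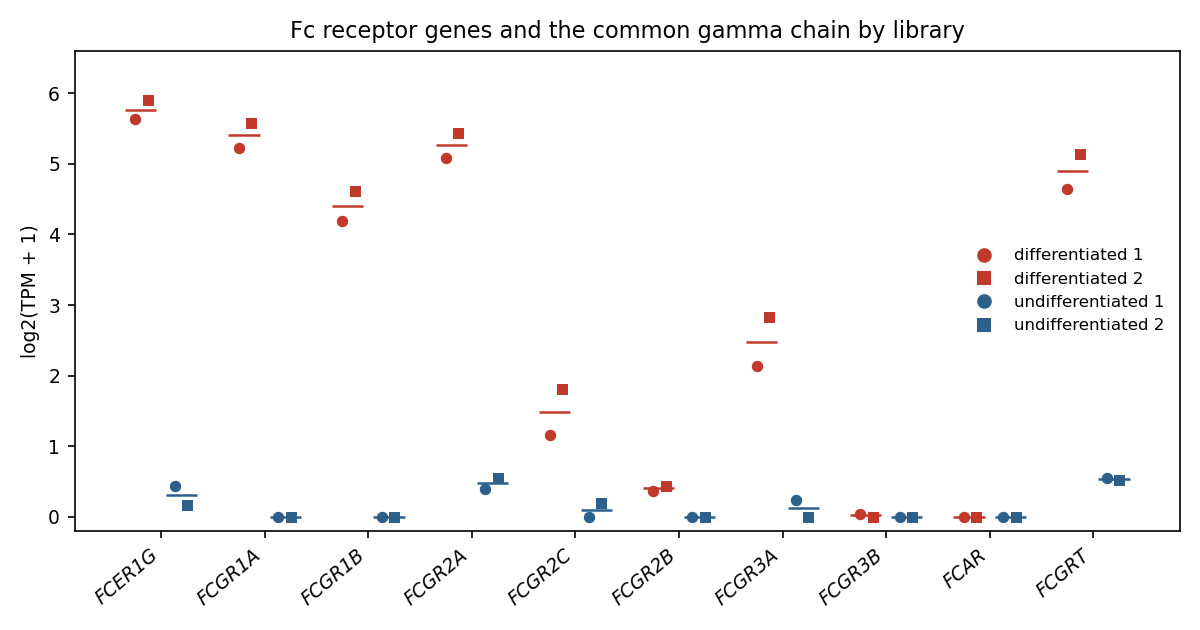
log2(TPM + 1) of each of the 10 genes (horizontal axis) in the 2 differentiated libraries (red) and the 2 undifferentiated libraries (blue), circles for replicate 1 and squares for replicate 2, with a short line at the group mean of log2(TPM + 1). FCER1G, FCGR1A, FCGR1B, FCGR2A and FCGRT sit far above their undifferentiated values, FCGR3A and FCGR2C lie lower, and FCGR2B, FCGR3B and FCAR lie at or near 0 in both groups.

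FCER1G, the signalling partner of several receptors, was the most abundant of the 10 genes in differentiated cells. It had 48.45 and 58.76 TPM in differentiated libraries, against 0.36 and 0.12 TPM in undifferentiated libraries. Its mean of 53.6 ± 7.29 TPM in differentiated cells, against 0.24 ± 0.170 TPM in undifferentiated cells (SD, n = 2 each), placed it at rank 219 of 19818 protein-coding genes in differentiated cells. The groups did not overlap, and the log2 difference was 5.46 ± 0.38 (SE; limma adjusted p = 5.02e-07).

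FCGR1A, the high-affinity IgG receptor that binds single IgG molecules, came next. It had 36.31 and 46.91 TPM in differentiated libraries and was listed at 0 in both undifferentiated libraries, so no fold is given (limma adjusted p = 5.56e-07). FCGR1B, a shorter copy whose reference coding sequence has 224 codons where that of FCGR1A has 374, had 17.33 and 23.51 TPM in differentiated libraries and was also listed at 0 in both undifferentiated libraries (limma adjusted p = 3.24e-06). Both copies were thus at 0 in the undifferentiated libraries and well above the filter in each differentiated library.

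FCGR2A, the low-affinity activating receptor for immune complexes that carries its own ITAM, was close to FCGR1A in level. It had 33.02 and 42.19 TPM in differentiated libraries, against 0.32 and 0.47 TPM in undifferentiated libraries. The means were 37.6 ± 6.48 TPM in differentiated cells, against 0.395 ± 0.106 TPM in undifferentiated cells (SD, n = 2 each), and the log2 difference was 4.78 ± 0.38 (SE; limma adjusted p = 1.62e-06). Both differentiated values of FCGR2A lay below those of FCER1G, and in each differentiated library FCGR2A lay below FCGR1A, although the ranges of that pair overlapped between libraries.

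FCGR2B, the only inhibitory receptor among the IgG receptors, was nearly absent. It had 0.29 and 0.36 TPM in differentiated libraries and was listed at 0 in both undifferentiated libraries, which left it under the filter and untested. FCGR2C, whose reference coding sequence joins an FCGR2B-like outer part to an FCGR2A-like tail, is typed in GENCODE as a polymorphic pseudogene. Whether this line carries an allele that makes a working activating receptor was not tested. FCGR2C had 1.23 and 2.5 TPM in differentiated libraries, against 0 and 0.15 TPM in undifferentiated libraries. The log2 difference was 1.38 ± 0.24 (SE, limma adjusted p = 0.000524). FCGR2C was called higher, but its call was lost when the test was made against a log2 difference of 1 (adjusted p = 0.325). Within each differentiated library FCGR2A exceeded FCGR2B by ratios of TPM of 114 and 117. These ratios rest on values of FCGR2B near 0 and on how reads were divided between FCGR2B and its close copy FCGR2C. FCGR2B and FCGR2C together had 1.52 and 2.86 TPM in differentiated libraries, where FCGR2A had 33.02 and 42.19 TPM. FCGR2B passed the filter and was called higher when the values were rescaled, with adjusted p = 0.0106 without the most abundant RNAs and 0.00173 over protein-coding genes.

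FCGR3A, the receptor of NK cells and of a subset of monocytes and macrophages, was called higher at a low level. It had 3.38 and 6.12 TPM in differentiated libraries, against 0.18 and 0 TPM in undifferentiated libraries, with means of 4.75 ± 1.94 TPM in differentiated cells, against 0.09 ± 0.127 TPM in undifferentiated cells (SD, n = 2 each; log2 difference 2.36 ± 0.32 SE, limma adjusted p = 8.08e-05). FCGR3B, the neutrophil receptor that is anchored by a lipid and has no tail, had 0.03 and 0 TPM in differentiated libraries and 0 in both undifferentiated libraries. FCAR, the IgA receptor of myeloid cells, which also pairs with FCER1G, was listed at 0 in all 4. The groups did not overlap for FCGR3A, and nothing can be said of a difference for FCGR3B and FCAR.

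Markers of the other cell types that use these receptors were scarce. None of the 8 NK cell markers passed the filter, their summed level was 1.92 and 1.41 TPM in differentiated libraries, against 1.59 and 0.81 TPM in undifferentiated libraries, and GNLY, KLRC1 and KLRF1 were at 0 in all 4. None of the 9 neutrophil markers passed it, with sums of 0.9 and 0.93 TPM in differentiated libraries and 0.39 and 0.14 TPM in undifferentiated libraries, and ELANE, PRTN3 and AZU1 were at 0 throughout. None of the 10 mast cell, basophil and eosinophil markers passed it either, with no value over 0.39 TPM and 4 of them at 0 throughout. Of 6 platelet markers, PPBP alone passed the filter (22.55 and 23.69 TPM in differentiated libraries, against 0.09 and 0 TPM in undifferentiated libraries), while GP6, the platelet collagen receptor that pairs with FCER1G, was at 0 in all 4. Of 8 T cell markers, CD4, which monocytes also express, rose (2.07 and 3.03 TPM in differentiated against 0 and 0.05 TPM in undifferentiated libraries) and TRAC fell (3.82 and 6.61 TPM in differentiated against 109.9 and 51.47 TPM in undifferentiated libraries). No NK marker exceeded 1.02 TPM in any library, and 1 of 2 NK markers tested was called higher when the values were rescaled over protein-coding genes, as was 1 of 8 when no filter was applied. Their part in the value of FCGR3A was not tested.

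FCGRT was expressed at a level close to that of FCGR2A. It had 23.92 and 34.34 TPM in differentiated libraries, against 0.47 and 0.43 TPM in undifferentiated libraries (means 29.1 ± 7.37 TPM in differentiated cells, against 0.45 ± 0.0283 TPM in undifferentiated cells, SD, n = 2 each; log2 difference 4.36 ± 0.39 SE, limma adjusted p = 3.73e-06). The order FCER1G, FCGR1A, FCGR2A, FCGRT and FCGR1B, from high to low, was the same in both differentiated libraries, although the ranges of FCGR1A and FCGR2A and of FCGR2A and FCGRT overlapped between libraries. FCGRT needs B2M, the light chain it shares with class I molecules. B2M had 227.2 and 182.54 TPM in differentiated libraries, against 78.08 and 44.75 TPM in undifferentiated libraries (log2 difference 1.77 ± 0.38 SE, limma adjusted p = 0.00209). Both genes rose, and B2M had more TPM than FCGRT in every library. The ratio of B2M to FCGRT was 9.50 and 5.32 in differentiated libraries, against 166 and 104 in undifferentiated libraries.

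These 7 calls held when any 1 of the 4 libraries was left out and under each scaling tried. They did not hold when no filter was applied and all 58302 genes were tested: adjusted p was then 0.0640 for FCGR1A, 0.0701 for FCER1G, 0.0790 for FCGR2A, 0.0963 for FCGR1B, 0.122 for FCGRT, 0.300 for FCGR3A and 0.470 for FCGR2C. All 7 kept the higher direction in that setting. The plot of adjusted p by setting shows how far each gene lay from the threshold.

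**Figure D2:**
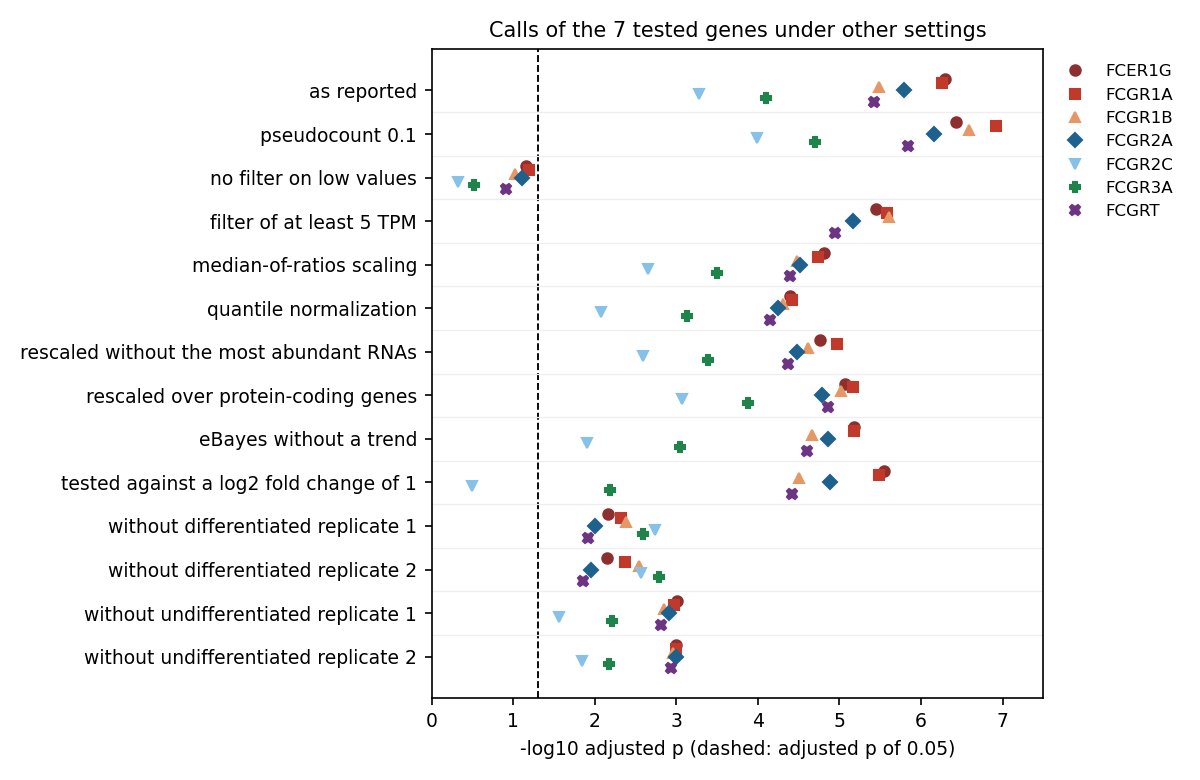
Minus log10 of the limma adjusted p (horizontal axis) for the 7 tested genes under the reported setting and 13 of the 14 alternatives (rows; the replicate block is not drawn), with a dashed line at an adjusted p of 0.05. All points except those without a filter on low values, and FCGR2C tested against a log2 difference of 1, lie right of the line; FCGR2C and FCGR3A have no point under the filter of at least 5 TPM.

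The IgG receptor genes arose by duplication, and several remain so alike that reads cannot be placed with certainty. Every 50-base window of the GENCODE transcripts of a gene was looked up in the transcripts of the others. FCGR1A shared 55.4% of its windows with another of these genes, most of them with FCGR1B (49.6%). FCGR1B shared 44.8%, FCGR2C 39.5%, FCGR3A 27.4%, FCGR3B 26.0%, FCGR2A 15.4% and FCGR2B 12.5%. The transcripts of FCER1G, FCGRT and FCAR shared none, so their values do not rest on how reads were divided among these genes. The plot of shared windows shows 3 blocks, the FCGR1, FCGR2 and FCGR3 copies, with no window shared between blocks.

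**Figure D3:**
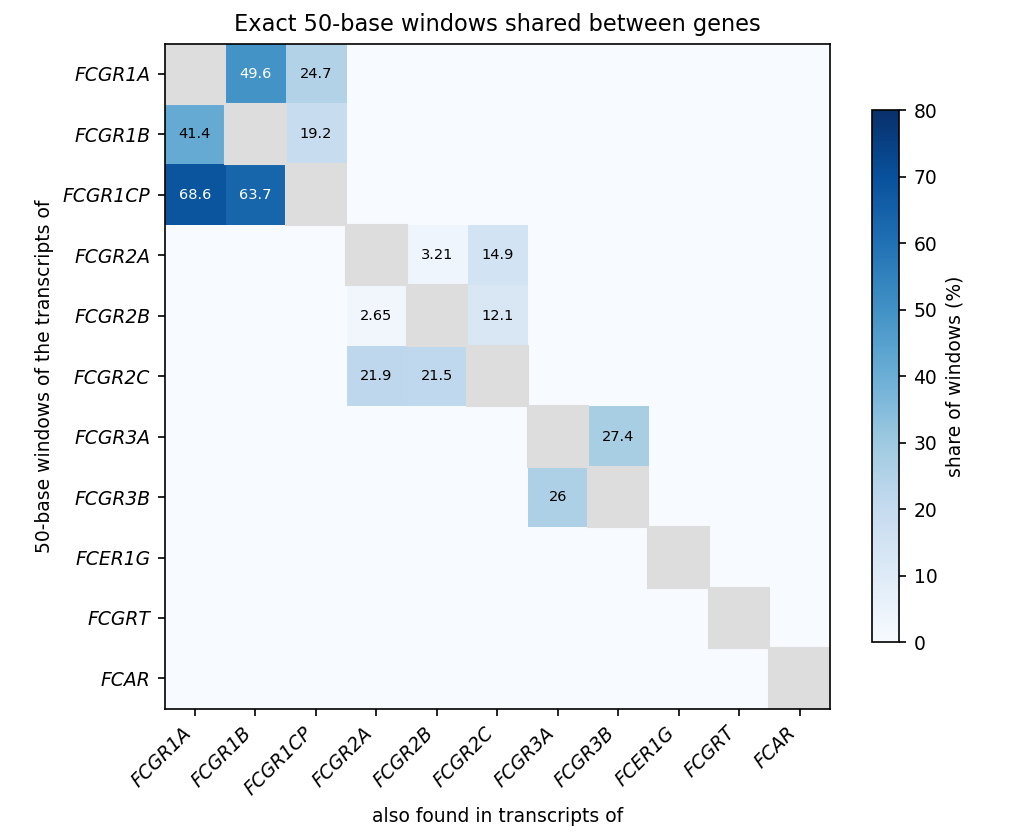
Share of the distinct 50-base windows in the transcripts of each gene (rows, in percent, colour scale) that also occur, letter for letter, in transcripts of another gene (columns); empty cells are 0 and the diagonal is left grey. Sharing is high among FCGR1A, FCGR1B and the pseudogene FCGR1CP, runs from FCGR2C to both FCGR2A (21.9%) and FCGR2B (21.5%), and joins FCGR3A with FCGR3B.

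Sums over copies depend less than single genes on how reads were split, and their direction was that of the single genes. FCGR1A and FCGR1B summed to 53.64 and 70.42 TPM in differentiated libraries and to 0 in both undifferentiated libraries (limma adjusted p = 2.02e-07). The 3 FCGR2 genes summed to 34.54 and 45.05 TPM in differentiated libraries, against 0.32 and 0.62 TPM in undifferentiated libraries (log2 difference 4.79 ± 0.39 SE, limma adjusted p = 1.74e-06). FCGR2B and FCGR2C together had 1.52 and 2.86 TPM in differentiated against 0 and 0.15 TPM in undifferentiated libraries (log2 difference 1.54 ± 0.25 SE, limma adjusted p = 0.00029), a call lost against a log2 difference of 1 (adjusted p = 0.146). FCGR3A and FCGR3B together had 3.41 and 6.12 TPM in differentiated against 0.18 and 0 TPM in undifferentiated libraries (log2 difference 2.37 ± 0.32 SE, limma adjusted p = 7.85e-05). Without a filter none of these sums was called (adjusted p = 0.0614, 0.102, 0.399 and 0.296 in the order given).

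A further FCGR1 copy, the pseudogene FCGR1CP, was looked at after its values were seen, because 79.9% of its windows occur in FCGR1A or FCGR1B. It had 8.09 and 9.36 TPM in differentiated libraries and 0 in both undifferentiated libraries. The ratio of FCGR1B to FCGR1A was 0.477 and 0.501 in the 2 differentiated libraries, and that of FCGR1CP to FCGR1A was 0.223 and 0.200. The ratios were thus alike in both libraries, and whether reads of FCGR1A were assigned to the other copies was not tested. With all 3 copies the sum was 61.73 and 79.78 TPM in differentiated libraries and 0 in both undifferentiated libraries (limma adjusted p = 1.5e-07).

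How alike the copies are can be read from their coding sequences. FCGR1A and FCGR1B differed at 4 of 668 aligned coding bases (99.4% identity), FCGR3A and FCGR3B at 9 of 699 (98.7%), and FCGR2A and FCGR2B at 47 of 763 (93.8%). FCGR2C joins pieces of the other FCGR2 genes: it differed from FCGR2B at 13 of 828 aligned bases and from FCGR2A at 38 of 903. Up to coding base 700 it differed from FCGR2B by 0 or 1 bases in every 100, and from base 701 on it differed from FCGR2A by 0 or 1. A stretch before the switch, chromosome 1, shows FCGR2C equal to FCGR2B and apart from FCGR2A at the 5 capitals, and the shared ITAM printed above lies after it.
FCGR2C coding bases 477 to 536: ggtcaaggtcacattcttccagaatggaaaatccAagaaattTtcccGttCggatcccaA
FCGR2B coding bases 480 to 539: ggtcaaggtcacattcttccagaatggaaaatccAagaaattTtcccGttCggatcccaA
FCGR2A coding bases 450 to 509: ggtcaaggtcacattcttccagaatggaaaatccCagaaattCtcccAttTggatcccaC

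The coding stretch where FCGR3A and FCGR3B differ most holds 3 differences in 60 bases, marked by capitals. It is shown because FCGR3A had 3.38 and 6.12 TPM and FCGR3B 0.03 and 0 TPM in the differentiated libraries. Over whole transcripts, 27.4% of the FCGR3A windows and 26.0% of the FCGR3B windows were shared.
FCGR3A coding bases 547 to 606: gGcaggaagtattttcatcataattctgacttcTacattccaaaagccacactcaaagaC
FCGR3B coding bases 439 to 498: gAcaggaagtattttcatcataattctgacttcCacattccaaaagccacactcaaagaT

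The make-up of the IgG receptor pool in differentiated cells was much the same in both libraries. Summed over the 7 FCGR genes, the level was 91.59 and 121.59 TPM in differentiated libraries, against 0.5 and 0.62 TPM in undifferentiated libraries. FCGR1A and FCGR1B made up 58.6% and 57.9% of this sum in the 2 differentiated libraries, FCGR2A 36.1% and 34.7%, and FCGR3A 3.69% and 5.03%. FCGR1A, its shorter copy FCGR1B and FCGR2A together made up most of it, as the plot of summed levels shows. The gamma chain stood at 0.850 and 0.768 times the sum of the receptors FCGR1A, FCGR1B and FCGR3A, and at 1.33 and 1.25 times FCGR1A alone.

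**Figure D4:**
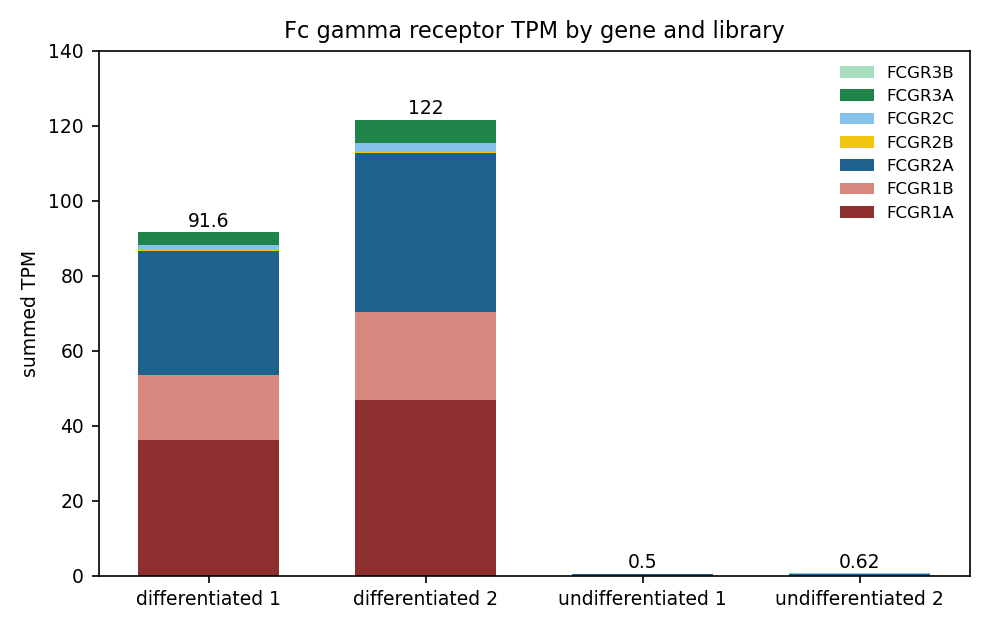
Summed TPM of the 7 FCGR genes (vertical axis, linear from 0) in each library (bars, differentiated left of undifferentiated), coloured by gene, with the sum written above each bar. The differentiated bars of 91.6 and 122 TPM consist mostly of FCGR1A, FCGR1B and FCGR2A, with thin bands for FCGR3A and FCGR2C and almost none for FCGR2B, and the undifferentiated bars are below 1 TPM.

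The differentiated libraries were not equal in level. All 7 tested genes were higher in differentiated library 2 than in library 1, by log2 ratios of 0.28 for FCER1G, 0.35 for FCGR2A, 0.37 for FCGR1A, 0.44 for FCGR1B, 0.52 for FCGRT, 0.86 for FCGR3A and 1.02 for FCGR2C. Over 7891 protein-coding tested genes the median of this ratio was 0.106, with quartiles of -0.149 and 0.341. FCGR3A and FCGR2C, the lowest of the 7, had the largest of these ratios. Over all tested genes the undifferentiated libraries differed more. The median log2 ratio of undifferentiated library 1 to library 2 was 0.694 over 7971 genes. That of differentiated library 2 to library 1 was 0.0985 over 8536 genes.

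The start sites of the abundant genes are shown next because the most abundant receptors share letters there. Windows from 250 bases before to 50 bases after a start came from RefSeq on GRCh38.p14; 7 of the 10 genes were matched, with 14 windows, and FCGR1B, FCGR2C and FCAR were not. Capitals mark the core GAGGAA of PU.1 sites, a myeloid transcription factor, on either strand (TTCCTC on the other strand), and the letters TTCNNNGAA, the interferon-gamma activated site. Either strand of GAGGAA occurred in 27.9% and TTCNNNGAA in 7.66% of 35116 such windows. Counted from the start site, TTCNNNGAA began at -93 and TTCCTC at -46 in FCGR1A, TTCCTC at -45 in FCGR2A and GAGGAA at 11 in FCGRT, and the FCER1G window held none of them. Of the FCGR2B windows, 1 held GAGGAA at 2 places and TTCNNNGAA at 2 places, although the gene was nearly absent. None of these matches overlapped another. A match of letters is a description and no measurement of binding.
FCGR1A, chr1:149782444-149782743, plus strand: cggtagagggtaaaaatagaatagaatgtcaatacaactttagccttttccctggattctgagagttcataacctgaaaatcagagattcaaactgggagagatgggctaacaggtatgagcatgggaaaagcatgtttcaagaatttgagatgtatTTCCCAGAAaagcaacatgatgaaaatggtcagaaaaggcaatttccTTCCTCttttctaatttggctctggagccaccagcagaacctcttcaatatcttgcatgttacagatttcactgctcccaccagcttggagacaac
FCGR2A, chr1:161505207-161505506, plus strand: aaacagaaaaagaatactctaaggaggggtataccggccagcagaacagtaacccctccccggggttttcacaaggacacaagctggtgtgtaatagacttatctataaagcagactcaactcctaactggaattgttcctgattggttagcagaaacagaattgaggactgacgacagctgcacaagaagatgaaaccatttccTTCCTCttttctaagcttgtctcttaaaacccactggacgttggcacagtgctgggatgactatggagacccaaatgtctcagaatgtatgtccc
FCER1G, chr1:161215045-161215344, plus strand: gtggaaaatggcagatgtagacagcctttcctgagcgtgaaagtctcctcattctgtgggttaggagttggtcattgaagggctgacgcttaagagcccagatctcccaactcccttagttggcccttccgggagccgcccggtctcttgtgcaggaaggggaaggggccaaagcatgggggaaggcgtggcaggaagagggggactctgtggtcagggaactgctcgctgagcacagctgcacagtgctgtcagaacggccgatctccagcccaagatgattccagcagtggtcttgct
FCGRT, chr19:49512411-49512710, plus strand: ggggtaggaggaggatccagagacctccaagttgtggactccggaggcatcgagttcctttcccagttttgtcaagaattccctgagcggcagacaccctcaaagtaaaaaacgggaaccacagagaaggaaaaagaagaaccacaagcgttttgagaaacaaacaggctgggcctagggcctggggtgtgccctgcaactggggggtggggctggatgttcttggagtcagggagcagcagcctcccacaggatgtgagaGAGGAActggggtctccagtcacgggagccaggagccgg

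FCGR1A and FCGR2A shared an unbroken run of 20 bases around TTCCTC, beginning at -52 in FCGR1A and -51 in FCGR2A, and it was found in no other of the 35116 windows. Another motif searched, the C/EBP letters TTNNGNAA (TTNCNNAA on the other strand), occurred in 36.8% of windows, and it was present in windows of FCGR2A, FCGRT, FCGR2B, FCGR3A and FCGR3B and in neither of FCGR1A and FCER1G, so genes high and low in differentiated cells held it. It is named because the line carries C/EBPα.

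FCGR3A and FCGR3B were a near-identical pair listed at unlike levels. Of the 300 bases in a pair of their start-site windows, 282 were the same (94.0%). The 60 bases around the difference in the PU.1 core are printed with their 3 differences in capitals, both on the minus strand of GRCh38.p14. TTCCTC began at 6, after the start site, in this FCGR3A window and was missing from that of FCGR3B. The other FCGR3A windows held no match to it either. The paired windows differed at 18 bases, and whether any of these bears on the levels was not tested.
FCGR3A, chr1:161549783-161549842: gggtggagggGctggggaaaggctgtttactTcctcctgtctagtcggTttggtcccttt
FCGR3B, chr1:161631141-161631200: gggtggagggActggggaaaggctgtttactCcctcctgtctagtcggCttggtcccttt

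Of other chains that carry an ITAM or a related motif, some rose and some fell between stages. TYROBP, the ITAM adaptor also called DAP12, had 66.32 and 77.62 TPM in differentiated libraries, against 0.15 and 0 TPM in undifferentiated libraries (log2 difference 6.08 ± 0.38 SE, limma adjusted p = 1.56e-07). HCST, the adaptor DAP10, which recruits PI3-kinase, had 19.15 and 27.8 TPM in differentiated against 0.11 and 0.21 TPM in undifferentiated libraries (log2 difference 4.38, limma adjusted p = 3.78e-06). CD79A and CD79B, the ITAM chains of the B cell receptor, fell: CD79A had 2.3 and 2.58 TPM in differentiated libraries, against 27.98 and 14.73 TPM in undifferentiated libraries (log2 difference -2.64, limma adjusted p = 0.000221), and CD79B had 1.8 and 1.99 TPM in differentiated against 13.32 and 10.8 TPM in undifferentiated libraries (log2 difference -2.17, limma adjusted p = 0.000535). Of the 8 listed adaptors 4 were tested, 2 rose and 2 fell, where 18.6% of all tested genes were called higher and 22.8% lower. The 2 that rose passed the filter through the differentiated libraries alone, so their count carries no weight of its own. The falls were not called without either differentiated library. FCER1G stood at 0.731 and 0.757 times the level of TYROBP in the 2 differentiated libraries. The T cell chains CD3D and CD3E were at 0 in all 4 libraries.

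The kinases and adaptors that act below the ITAM did not move together. Of 30 listed genes 28 were tested, 10 rose, 6 fell and 12 were not called, with a median log2 difference of 0.22 beside -0.14 for all tested genes, of which 18.6% were called higher and 22.8% lower. The falls, 6 of 28, were about as frequent as among all genes. Several genes that rose, PIK3R5 among them, passed the filter through the differentiated libraries alone, and YES1, which fell, through the undifferentiated ones. Among the largest rises were those of PIK3R5, a regulatory subunit of PI3-kinase gamma (12.23 and 11.21 TPM in differentiated against 0.29 and 0.22 TPM in undifferentiated libraries, log2 difference 3.34) and of LYN, which phosphorylates ITAMs (24.51 and 29.4 TPM in differentiated against 3.72 and 1.63 TPM in undifferentiated libraries, log2 difference 2.98). Their limma adjusted p were 1.83e-05 and 8.43e-05. SYK, which docks on the phosphorylated ITAM, ranked below these and was named after its values were seen, with 17.57 and 24.14 TPM in differentiated libraries, against 3.17 and 1.55 TPM in undifferentiated libraries (log2 difference 2.73, limma adjusted p = 0.000158).

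The 6 genes that fell were BLNK, PIK3AP1, PLCG1, TEC, VAV3 and YES1, of which BLNK and PIK3AP1 are adaptors known from B cell receptor signalling (BLNK and YES1 are named after their values were seen). TEC, a kinase of the family of BTK, had 1.36 and 0.92 TPM in differentiated libraries, against 12.66 and 6.8 TPM in undifferentiated libraries (log2 difference -2.28, limma adjusted p = 0.000666). VAV3, a guanine nucleotide exchange factor, and PLCG1, a phospholipase, fell by 1.80 and 1.51 on the log2 scale (limma adjusted p = 0.0116 and 0.0122). PIK3AP1, an adaptor for PI3-kinase and the gene with the highest single value of the list, had 10.82 and 11.41 TPM in differentiated against 50.9 and 21.29 TPM in undifferentiated libraries, and the next most abundant, LAT2, had 14.03 and 13.15 TPM in differentiated against 27.32 and 24.5 TPM in undifferentiated libraries and was not called. Without differentiated library 1 or 2 the list had 3 rises and no fall in each case, and SYK, LYN, TEC, VAV3 and PLCG1 were then not called. Without undifferentiated library 2 it had 8 rises and 10 falls.

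RNA of genes listed for inhibitory signalling of Fc receptors, not only for that of FCGR2B, was measured in both stages. All 12 listed genes were tested, 5 rose, 1 fell and 6 were not called. The median log2 difference was 0.69, beside -0.14 for all tested genes, of which 18.6% were called higher and 22.8% lower. DOK2, a docking protein that dampens kinase signalling, had 8.32 and 9.15 TPM in differentiated libraries, against 0 and 0.07 TPM in undifferentiated libraries (log2 difference 3.23, limma adjusted p = 1.35e-05). It passed the filter through the differentiated libraries alone. INPP5D, the phosphatase SHIP1 recruited by the ITIM, had 16.38 and 16.31 TPM in differentiated against 5.64 and 2.58 TPM in undifferentiated libraries (log2 difference 1.83, limma adjusted p = 0.00303), and the related INPPL1 had 22 and 23.13 TPM in differentiated against 6.76 and 5.52 TPM in undifferentiated libraries (log2 difference 1.73, limma adjusted p = 0.00225). PTPN11, the phosphatase SHP2, was the gene that fell, with 9.68 and 6.59 TPM in differentiated against 28.17 and 21.17 TPM in undifferentiated libraries (log2 difference -1.50, limma adjusted p = 0.00733). The phosphatase PTPN6, the most abundant of the list, had 38.76 and 40.17 TPM in differentiated against 25.13 and 24.12 TPM in undifferentiated libraries and was not called. DOK3, an adaptor of the same family as DOK2 and the next most abundant, had 11.49 and 11.89 TPM in differentiated against 26.51 and 18.33 TPM in undifferentiated libraries and was not called either. Without differentiated library 1 or 2 most of these calls were lost. Rescaled over protein-coding genes, 8 genes of the list were called higher, where 4102 of all 11946 tested genes were. Quantile normalized, 8 were called higher as well, where 2585 of all 10180 tested genes were.

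Among genes of the engulfment machinery, rises outnumbered falls. Of 35 listed genes 30 were tested, 15 rose, 2 fell and 13 were not called (median log2 difference 1.03), where 18.6% of all tested genes were called higher and 22.8% lower. NCF1, a subunit of the phagocyte oxidase and a gene with near-identical pseudogenes, had 16.69 and 20.48 TPM in differentiated libraries, against 0.37 and 0.57 TPM in undifferentiated libraries (log2 difference 3.73, limma adjusted p = 1.1e-05). GSN, which severs actin filaments, had 26.09 and 30.43 TPM in differentiated against 1.47 and 0.97 TPM in undifferentiated libraries (log2 difference 3.73, limma adjusted p = 1.08e-05), and the kinase PRKCB had 11.21 and 11.29 TPM in differentiated against 0.72 and 0.31 TPM in undifferentiated libraries (log2 difference 3.03, limma adjusted p = 4.46e-05). CFL1, an actin-depolymerizing protein and the most abundant of the list, fell, with 150.14 and 179.83 TPM in differentiated libraries, against 390.21 and 321.98 TPM in undifferentiated libraries (log2 difference -1.10, limma adjusted p = 0.0171). ARPC3, a subunit of the Arp2/3 complex and the next most abundant, had 60.06 and 66.45 TPM in differentiated against 59.81 and 42.79 TPM in undifferentiated libraries and was not called. PLD1, a phospholipase, also fell (log2 difference -0.89, limma adjusted p = 0.0189). It passed the filter through the undifferentiated libraries alone. Several of the genes that rose, NCF1 and PRKCB among them, passed it through the differentiated libraries alone. The counts of this list thus rest in part on the filter. Without differentiated library 1 or 2 the list had 6 or 5 rises and no fall, and rescaled over protein-coding genes it had 26 rises and 2 falls among 32 tested.

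**Figure D5:**
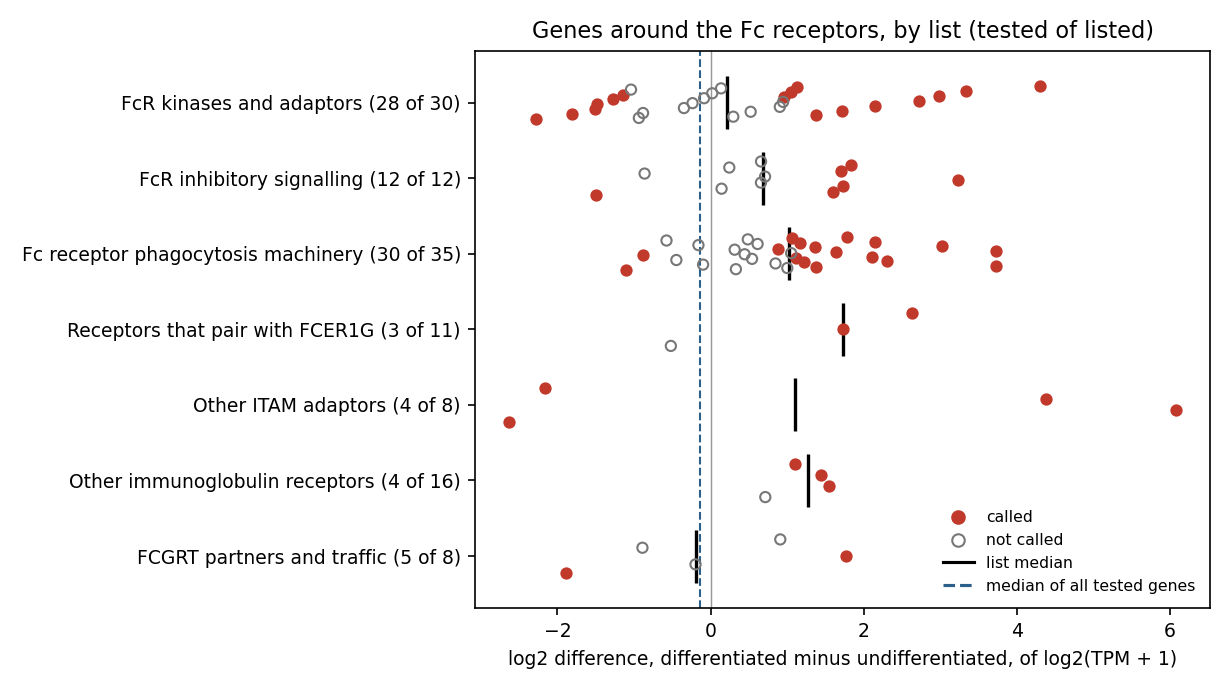
Log2 difference, differentiated minus undifferentiated, of log2(TPM + 1) (horizontal axis) for each tested gene of 7 lists (rows, with tested and listed numbers), filled where called and open where not, with a black line at the list median and a dashed line at the median of all tested genes (-0.14). The phagocytosis and inhibitory lists lie mostly right of 0, the kinases and adaptors on both sides, and the ITAM adaptors fall apart into 2 high and 2 low genes.

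Few other receptors that pair with FCER1G were expressed. Of 11 listed, 3 were tested and 2 rose, where 18.6% of all tested genes were called higher. The 2 that rose passed the filter through the differentiated libraries alone, so this count carries no weight of its own. CLEC4E, the receptor Mincle for mycobacterial glycolipid, had 5.3 and 6.31 TPM in differentiated libraries, against 0.17 and 0.02 TPM in undifferentiated libraries (log2 difference 2.64, limma adjusted p = 3.25e-05). OSCAR, a collagen receptor, had 1.89 and 3.1 TPM in differentiated against 0.04 and 0.03 TPM in undifferentiated libraries (log2 difference 1.73, limma adjusted p = 9.84e-05). LILRA2 had 0.71 and 1.21 TPM in differentiated against 1.79 and 1.78 TPM in undifferentiated libraries and was not called. All of these lay far below FCGR1A, the most abundant partner of the gamma chain measured here.

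Receptors for other antibody classes and the FCRL family were likewise low. Of 16 listed genes 4 were tested, 3 rose and 1 was not called (median log2 difference 1.27). Of all tested genes, 18.6% were called higher. FCGBP, which binds IgG in mucus, had 1.94 and 2.06 TPM in differentiated libraries, against 0.03 and 0.02 TPM in undifferentiated libraries (log2 difference 1.55, limma adjusted p = 6.5e-05). PIGR, which carries polymeric IgA across epithelia, had 1.01 and 2.72 TPM in differentiated against 0 and 0.01 TPM in undifferentiated libraries (log2 difference 1.44, limma adjusted p = 0.000629). FCGBP and PIGR passed the filter through the differentiated libraries alone, so the count of 3 that rose carries no weight of its own. TRIM21, a cytosolic IgG receptor, had 2.66 and 3.8 TPM in differentiated against 1.28 and 0.68 TPM in undifferentiated libraries (log2 difference 1.10, limma adjusted p = 0.0208). The IgM receptor FCMR, the most abundant of them, had 3.89 and 4.44 TPM in differentiated against 3.03 and 1.45 TPM in undifferentiated libraries and was not called. The IgE receptor chains FCER1A (0.1 and 0.31 TPM in differentiated libraries and 0 in both undifferentiated ones) and MS4A2 (0 in both differentiated libraries, 0.03 and 0 TPM in undifferentiated ones) stayed below the filter. Without differentiated library 1 or 2 the list had 2 rises, and TRIM21 was not called.

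Around FCGRT, 5 of 8 listed partners and traffic genes were tested, of which B2M rose, RAB11A fell and 3 were not called (median log2 difference -0.20). Calls were about as frequent as among all tested genes, of which 18.6% were called higher and 22.8% lower. RAB11A, a GTPase of the recycling endosome, had 17.54 and 14.96 TPM in differentiated libraries, against 68.76 and 57.31 TPM in undifferentiated libraries (log2 difference -1.89, limma adjusted p = 0.000988). Neither B2M nor RAB11A was called without differentiated library 1 or without library 2.

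The genes whose values over the 4 libraries lay nearest to FCER1G, by Euclidean distance on log2(TPM + 1), were CYBB (0.262), the catalytic subunit of the phagocyte oxidase, MS4A7 (0.386), PTPRC (0.444), HAVCR2 (0.493) and C1QC (0.508). CYBB had 50.56 and 52.81 TPM in differentiated libraries, against 0.18 and 0.13 TPM in undifferentiated libraries. Nearest to FCGR2A were PLEC (0.381), SERPINA1 (0.447), THEMIS2 (0.466), NPL (0.499) and CXCL8 (0.508). FCGRT was 6th in nearness to FCGR2A, and FCGR1A was 13th for FCER1G and 15th for FCGR2A. With 4 libraries in 2 groups this likeness is mostly one of level in each group.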

How the data were processed

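Total RNA of 2 differentiated and 2 undifferentiated BLaER1 samples was sequenced from stranded libraries, per the labels' protocols. The authors deposited TPM, made with Trimmomatic, STAR and RSEM per the submitters' processing notes. Tool versions and settings, and the build and annotation used, were not given in the sources used here. Reads that fit more than 1 gene are divided by RSEM by estimation, which makes values of near-identical copies uncertain. TPM keeps no depth, and abundant RNAs lower the TPM of all other genes in a library.

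Columns were matched to samples by title. Genes with at least 1 TPM in 2 or more libraries (10180 of 58302) were compared on log2(TPM + 1) with limma 3.58.1 in R 4.3.3 (mean-variance trend, two-sided, no covariate), a procedure tested on simulated data. With 2 against 2 libraries, an exact permutation test has a smallest two-sided p of 0.333, so limma alone was used. No fold is given against a group listed at 0. Same-numbered libraries did not deviate together (r = -0.02 over 10180 genes).

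The members and lists were chosen with earlier results of these data known. Named list genes are up to 3 called genes with the largest difference in each direction and the 2 most abundant, named nearest genes the 5 at the smallest distance; any other was chosen after its values were seen. Not every gene so selected is reported here. Alternatives were 14 settings of pseudocount, filter, scaling, test and libraries. GENCODE release 29, in which 58039 gene IDs were found, gave gene types and transcripts.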

Additional observations from a re-analysis of the deposited data

How the results depend on the processing

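All 7 tested genes and all sums kept the higher direction under every alternative that gave a value. Without a filter on low values 525 genes were called (404 higher, 121 lower), 0 of the 10 Fc receptor genes, and no sum: adjusted p was 0.0614 for FCGR1A with FCGR1B, 0.399 for FCGR2B with FCGR2C, 0.102 for the 3 FCGR2 genes, 0.296 for FCGR3A with FCGR3B and 0.0545 for FCGR1A, FCGR1B and FCGR1CP, a sum added after seeing the data; the cause was not tested. With a filter of at least 5 TPM, 2436 genes were called (1016 higher, 1420 lower), including the 5 Fc receptor genes left to test. Against a log2 difference of 1, 1305 genes were called (698 higher, 607 lower), and FCGR2C and the sum of FCGR2B and FCGR2C (adjusted p = 0.146) were not. Genes called higher numbered 3089 when rescaled without the most abundant RNAs and 4102 over protein-coding genes, where the median log2 difference of all genes was 0.04 and 0.37, against -0.14 as reported. FCGR2B passed the filter in both and was called. With 1 library left out, the lone library is assumed to vary like the other group: 1271 to 5652 genes were called, 934 to 2714 higher and 337 to 3818 lower, with 7 Fc receptor genes called each time. The lowest counts came without a differentiated library (1293 without library 1, 1271 without library 2), and 3818 lower without undifferentiated library 2. With a replicate block, 3766 genes were called (1730 higher, 2036 lower) and 7 Fc receptor genes. Same-numbered libraries did not deviate together, which cannot show whether they were paired. Unknown depth limits what can be said of FCGR2B, FCGR3B and FCAR, for which a listed 0 is no proof of absence.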
